A study of Mus musculus with 20 samples.

Results

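The Slc22 genes encode a family of membrane transporters for organic ions, and 8 of them were named for this description: Slc22a3, Slc22a5, Slc22a7, Slc22a18, Slc22a23, Slc22a27, Slc22a28 and Slc22a30. Rows were taken from the deposited value table by the gene symbol of the array platform, and a symbol with several rows would have been represented by the row with the highest mean over all 20 arrays. Of the 8 genes, 7 had a row, each had exactly 1, and Slc22a3 was not analysed here. The 7 probe sets are set against 16 other measured Slc22 genes and 22206 probe sets in all, which carried 19505 gene symbols. The genes were selected on signals of these same arrays, with earlier results of these data known, so their levels describe a chosen set. The number of them that pass a test is no evidence about the family.

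SLC22 proteins carry organic cations, organic anions or zwitterions such as carnitine across the plasma membrane, and in liver they sit largely on hepatocytes, where they take up metabolites and drugs. Slc22a5 encodes OCTN2, the sodium-dependent carnitine carrier, and mice without it are carnitine deficient and burn fatty acids poorly. Slc22a7 encodes OAT2, an organic anion transporter of the blood-facing side of the hepatocyte. Slc22a27, Slc22a28 and Slc22a30 belong to a cluster of organic anion transporter genes on mouse chromosome 19, and the substrates of several of these proteins are poorly known. Slc22a18 is an imprinted gene of chromosome 7, and Slc22a23 encodes a transporter with no established substrate.

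The arrays came from 20 mouse livers, 5 in each of 4 groups: fasted Mcl1(L-/-), fed Mcl1(L-/-), fasted WT and fed WT. Fasted mice were kept singly in wire-bottom cages for 48 hours with water and no food, and fed mice had free access to food. Mcl1, an anti-apoptotic gene of the BCL2 family, was deleted in livers of Mcl1(F/F) mice with AAV-LP1-Cre, an adeno-associated virus whose LP1 promoter drives Cre recombinase in hepatocytes. The labels carry the same protocol text for all 20 samples and do not say what WT mice were given, so an effect of virus or Cre and an effect of losing Mcl1 cannot be told apart. The labels give neither sex nor age. The design asks how liver transcripts change on fasting with and without Mcl1.

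Values are log2 signals after robust multi-array averaging. All differences are on that log2 scale, with standard errors (SE) from limma and p-values adjusted over all 22206 probe sets by the Benjamini-Hochberg method. A difference is called at an adjusted p under 0.05. Mcl1 itself was lower in every Mcl1(L-/-) liver than in every WT liver, with means of 6.14 ± 0.25 in fasted Mcl1(L-/-) and 7.28 ± 0.09 in fasted WT livers, and 6.09 ± 0.16 in fed Mcl1(L-/-) and 7.43 ± 0.15 in fed WT livers (SD, n = 5 each). The 8 hepatocyte markers had group means between 10.9 and 12.5, while the 6 kidney tubule markers, from an organ rich in Slc22 transporters, lay between 2.09 and 3.54. Array medians lay between 3.35 and 3.47. On the first principal component, computed without any Slc22 probe set, fed livers lay between -25.9 and -20.4 and fasted WT livers between 6.58 and 18.4. Fasted Mcl1(L-/-) replicates 1 to 5 lay at 42.0, 46.5, 18.3, 26.8 and 43.2, so that replicate 3 fell inside the range of fasted WT livers. In whole liver RNA, fewer cells of a type and less RNA per cell cannot be told apart.

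**Figure D1:**
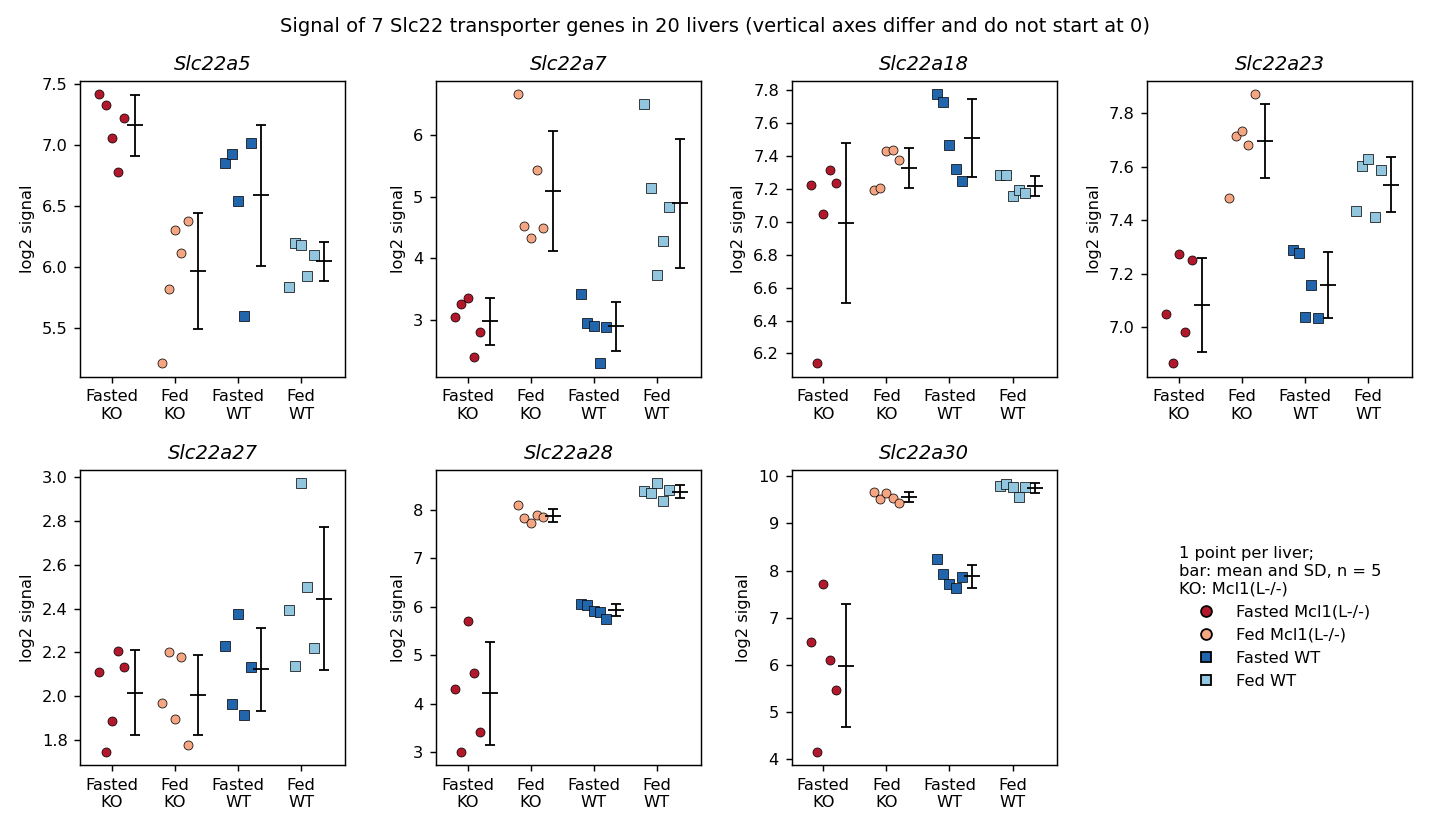
Log2 signal (vertical axis, different for each gene) of the 7 Slc22 genes in fasted and fed Mcl1(L-/-) livers (KO, circles) and fasted and fed WT livers (squares), 1 point per liver, with the mean and SD of 5 beside each group. Slc22a28 and Slc22a30 are lowest and most spread in fasted Mcl1(L-/-) livers, Slc22a7 is low in both fasted groups, and Slc22a5 is highest in fasted Mcl1(L-/-) livers.

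Slc22a28 and Slc22a30, the organic anion transporter genes of the chromosome 19 cluster with the largest differences, also share nearly the same sequence around their start sites. The windows below run from 250 bases before to 50 bases after the RefSeq start, on the gene's own strand, 5′ to 3′, from the GRCm38.p6 build. They lie at chr19:8131933-8132232 for Slc22a28 and chr19:8405056-8405355 for Slc22a30, both on the minus strand. They are shown because these genes moved together. Capitals mark the bases at which the aligned windows differ.
Slc22a28: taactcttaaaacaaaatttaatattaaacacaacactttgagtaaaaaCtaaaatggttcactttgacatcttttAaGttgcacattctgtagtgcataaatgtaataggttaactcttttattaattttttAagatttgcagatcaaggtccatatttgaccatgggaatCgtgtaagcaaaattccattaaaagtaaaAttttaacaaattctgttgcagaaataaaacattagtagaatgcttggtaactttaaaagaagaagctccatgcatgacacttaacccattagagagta
Slc22a30: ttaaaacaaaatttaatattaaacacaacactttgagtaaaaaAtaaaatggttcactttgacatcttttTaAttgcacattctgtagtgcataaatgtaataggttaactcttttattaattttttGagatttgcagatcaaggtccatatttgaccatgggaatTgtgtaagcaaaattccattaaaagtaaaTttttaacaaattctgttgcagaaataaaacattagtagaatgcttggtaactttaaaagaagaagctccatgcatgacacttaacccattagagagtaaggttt
Over 294 aligned positions 288 bases were identical (98.0%), with 6 mismatches and no gap. The gene between them on the chromosome, Slc22a29, has a window at chr19:8218851-8219150 that could be aligned with that of Slc22a30 over 233 columns at 84.5% identity. Capitals mark its bases that differ from Slc22a30 within that alignment.
Slc22a29: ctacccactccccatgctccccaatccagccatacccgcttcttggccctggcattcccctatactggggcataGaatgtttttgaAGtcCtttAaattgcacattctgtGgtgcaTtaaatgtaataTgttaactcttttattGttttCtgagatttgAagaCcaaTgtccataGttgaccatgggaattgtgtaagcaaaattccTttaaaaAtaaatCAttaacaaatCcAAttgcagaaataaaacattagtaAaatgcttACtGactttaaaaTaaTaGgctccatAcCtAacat
The Slc22a28 and Slc22a30 windows are poor in G and C (28.3% and 27.7%, against a median of 52.7% over 32851 windows of 300 bases). Each holds the letters GTTAAC at 1 position, as does that of Slc22a29. These letters were listed for the search as a short form of sites for the hepatocyte factor HNF1. Counted on either strand, 3.05% of all windows hold these letters. That share is over windows mostly richer in G and C, and the share among windows as poor in them was not computed. The windows of Slc22a28, Slc22a30 and Slc22a29 also align with each other, so their matches are not separate finds. The window of Slc22a19, a gene of the same cluster that was not called in any comparison, holds the letters at 1 position too. The longer full HNF1 site was also searched for, as were sites listed as HNF4 and DR1. None of these was found in the windows of Slc22a28, Slc22a30 or Slc22a29. They are rare, in 0.00913%, 0.475% and 0.0396% of all windows in that order. Slc22a29 was not called on fasting, and binding of HNF1 to these windows was not tested. The letters TTCNNNGAA of STAT factors, found in 8.3% of windows, occur in none of the 6 windows that were matched to the 7 genes. Which probes of the array read each gene, and how far they bind transcripts of the other, is not stated by the labels, so the signals of these close relatives may be partly shared.

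Slc22a28 had log2 signals of 4.30, 3.004, 5.71, 4.62 and 3.42 in fasted Mcl1(L-/-) replicates 1 to 5, against 8.10, 7.83, 7.72, 7.90 and 7.84 in fed Mcl1(L-/-) replicates 1 to 5. In fasted WT livers it read 6.06, 6.03, 5.90, 5.89 and 5.76, against 8.38, 8.35, 8.55, 8.18 and 8.41 in fed WT livers. Fasted and fed livers were thus apart in both genotypes, and fasted Mcl1(L-/-) livers were the lowest of all, and the most spread. Fasting lowered Slc22a28 by 12.7-fold in Mcl1(L-/-) livers (log2 -3.66, SE 0.30, limma adjusted p = 6.83e-09) and by 5.44-fold in WT livers (log2 -2.44, SE 0.30, limma adjusted p = 5.85e-06).

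Slc22a30 gave 6.48, 4.16, 7.72, 6.10 and 5.48 in fasted Mcl1(L-/-) replicates 1 to 5, against 9.67, 9.52, 9.65, 9.54 and 9.43 in fed Mcl1(L-/-) livers. The fasted WT livers gave 8.25, 7.92, 7.72, 7.63 and 7.87, against 9.80, 9.84, 9.77, 9.57 and 9.77 in fed WT livers. Again the fasted livers of each genotype lay below all its fed livers. The fall was 11.9-fold in Mcl1(L-/-) livers (log2 -3.58, SE 0.36, limma adjusted p = 1.84e-07) and 3.66-fold in WT livers (log2 -1.87, SE 0.36, limma adjusted p = 0.00152).

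Among fasted livers, Mcl1(L-/-) livers had less Slc22a28 than WT livers by 3.28-fold (log2 -1.71, SE 0.30, limma adjusted p = 0.00216). The highest of the 5 fasted Mcl1(L-/-) livers, replicate 3 at 5.71, lay just under the lowest fasted WT liver at 5.76. Slc22a30 was 3.71-fold lower in fasted Mcl1(L-/-) than in fasted WT livers (log2 -1.89, SE 0.36, limma adjusted p = 0.00416). Here replicate 3, at 7.72, lay within the range of fasted WT livers, and the other 4 lay below it. The standard deviation of fasted Mcl1(L-/-) livers was 1.06 for Slc22a28 and 1.31 for Slc22a30, against 0.10 to 0.24 in the other groups of either gene. The model gives all groups 1 spread, so the errors of comparisons with fasted Mcl1(L-/-) livers can be too small. With only the groups compared in the fit the adjusted p values among fasted livers were 0.0347 for Slc22a28 and 0.0493 for Slc22a30. The exact two-sided permutation test of 5 against 5 arrays gave p = 0.00794 for Slc22a28, the smallest it can give, and p = 0.0159 for Slc22a30, among 28 such tests.

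Within the fasted Mcl1(L-/-) group the livers took nearly the same order for both genes. Replicate 3 was highest and replicate 2 lowest for each, replicate 5 was next to lowest, and replicates 1 and 4 lay between, in opposite order for the 2 genes. The deviations of both genes from their group means correlated at r = 0.93 over 20 arrays, and at r = 0.48 over the 15 arrays outside the fasted Mcl1(L-/-) group, as a description of arrays that share a normalisation. On the first principal component replicate 3 lay lowest and replicate 2 highest of the 5, the reverse of their order for these genes. The part of that whole-array difference in the fall of Slc22a28 and Slc22a30 was not tested. Without replicate 3 the difference from fed livers in Mcl1(L-/-) was -4.04 for Slc22a28 and -4.01 for Slc22a30.

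**Figure D2:**
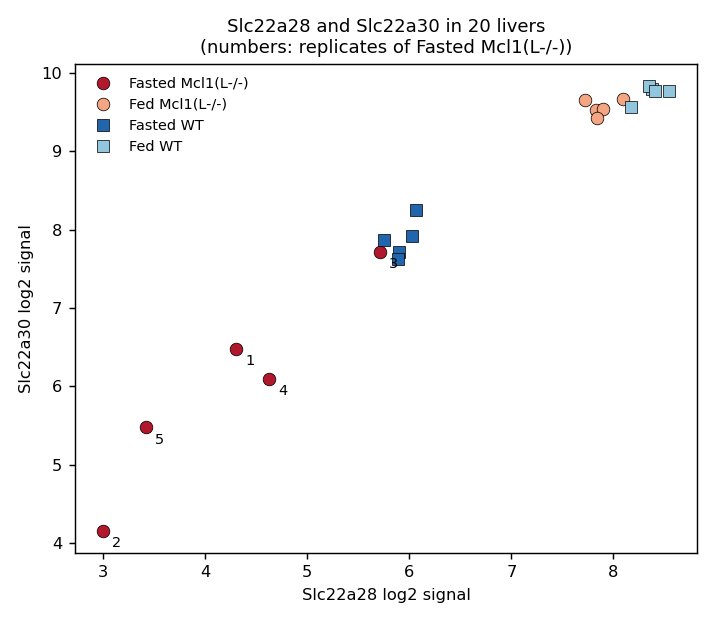
Slc22a28 (horizontal) against Slc22a30 (vertical), log2 signals of 20 livers, with replicate numbers beside the fasted Mcl1(L-/-) livers. Fed livers of both genotypes cluster at the top right, and 4 of the 5 fasted Mcl1(L-/-) livers lie below and to the left of all fasted WT livers, with replicate 3 beside the WT livers.

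Among fed livers, Slc22a28 read between 7.72 and 8.10 in Mcl1(L-/-) and between 8.18 and 8.55 in WT livers, with no overlap. The difference was -0.50 (SE 0.30) and was not called by limma (adjusted p = 0.880, and 0.133 with only the fed groups in the fit). The exact permutation p was 0.00794, and in 0.766% of all probe sets all 5 fed Mcl1(L-/-) livers likewise lay below all 5 fed WT livers. Slc22a30 overlapped between the fed groups, with a difference of -0.19 (SE 0.36, limma adjusted p = 0.982). Its exact permutation p was 0.0238. The SE of either gene shares in the wide spread of fasted Mcl1(L-/-) livers, so it can be too large between fed livers. For Slc22a30 the SD was 0.10 in both fed groups. Under the other settings the lowest limma adjusted p for Slc22a30 between fed groups was 0.671.

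The third gene of the cluster named for this description, Slc22a27, had a dim probe set, with a mean of 2.15 where the median probe set mean was 3.41. It averaged 2.02 ± 0.19 in fasted and 2.01 ± 0.18 in fed Mcl1(L-/-) livers, and 2.12 ± 0.19 in fasted and 2.45 ± 0.33 in fed WT livers (SD, n = 5 each). The fed WT mean was the highest of the 4, with replicate 3 at 2.97, and all groups overlapped. No comparison was called. The difference between fed Mcl1(L-/-) and fed WT livers was -0.44 (95% confidence interval -0.73 to -0.15, limma adjusted p = 0.501). The summary method draws signals this dim together, and how much of them is background was not tested, so the size of any change is uncertain.

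In chromosome order the cluster runs Slc22a19, Slc22a26, Slc22a27, Slc22a28, Slc22a29, Slc22a30, Slc22a8 and Slc22a6 in the RefSeq table for GRCm38.p6. Slc22a8 and Slc22a6 encode OAT3 and OAT1, the main organic anion transporters of the kidney. Slc22a29, which lies between Slc22a28 and Slc22a30, differed between fasted and fed livers by -0.25 in Mcl1(L-/-) and -0.24 in WT (SE 0.13 for both, limma adjusted p = 0.266 and 0.377). Slc22a26 differed by -0.22 and -0.23 (SE 0.14, limma adjusted p = 0.390 and 0.421). None of Slc22a19, Slc22a26, Slc22a29, Slc22a8 and Slc22a6 was called in any of the 5 comparisons.

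Of 18 other Slc22 genes listed, 16 were measured. Fasting raised Slc22a21 in Mcl1(L-/-) livers by 1.56-fold (log2 0.64, SE 0.18, limma adjusted p = 0.0132). The arrays overlapped. Fasted Mcl1(L-/-) replicate 1 read 5.63 and the rest of its group 4.38 to 4.87, against 3.95 to 4.50 in fed Mcl1(L-/-) livers. Slc22a21 encodes the carnitine transporter OCTN3 of mice and neighbours Slc22a5 on chromosome 11. Fasting raised Slc22a15 in WT livers by 1.45-fold (log2 0.53, SE 0.12, limma adjusted p = 0.00435). Its probe set was dim, with means of 2.83 in fed and 3.37 in fasted WT livers. In Mcl1(L-/-) livers the means were 3.14 fed and 3.17 fasted, and the median probe set mean was 3.41. The other 15 measured genes were not called in Mcl1(L-/-) livers, nor the other 15 in WT livers, and the median fasting difference over the 16 was -0.07 in Mcl1(L-/-) and 0.03 in WT livers. Over all probe sets these medians were -0.0015 and 0.0149, and 8.2% and 3.1% of probe sets were called higher. None of the 16 was called in either comparison of genotypes or in the interaction. An unadjusted limma p under 0.05 was reached by 2 of them in fasted livers, 3 in fed livers and 2 in the interaction. Of all 22206 probe sets it was reached by 4065, 1429 and 2477.

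**Figure D3:**
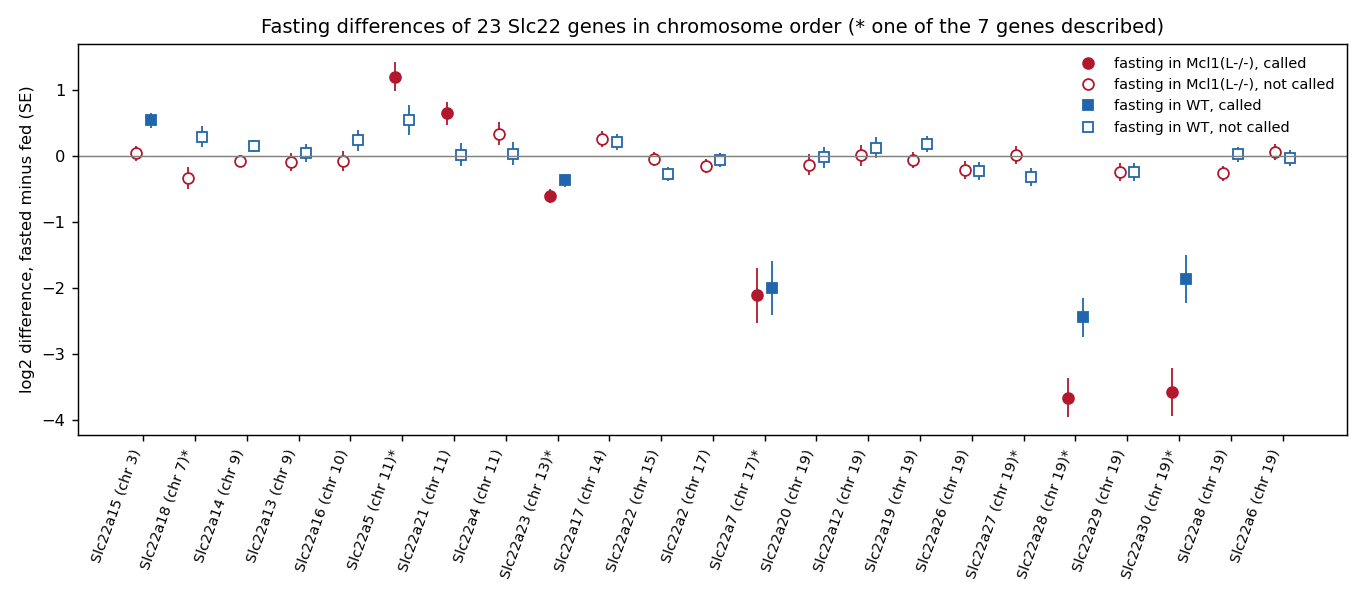
Fasted minus fed log2 difference with its SE (vertical) for 23 Slc22 genes in chromosome order (horizontal), in Mcl1(L-/-) livers (circles) and WT livers (squares), filled where the limma adjusted p was under 0.05. Slc22a7, Slc22a28 and Slc22a30 lie far below 0 in both genotypes, Slc22a5 lies above 0, and most of the others lie near 0.

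Slc22a5, the carnitine carrier gene, was raised by fasting in livers without Mcl1. It read 7.42, 7.33, 7.06, 6.78 and 7.22 in fasted Mcl1(L-/-) livers, against 5.21, 5.82, 6.31, 6.12 and 6.37 in fed Mcl1(L-/-) livers. In fasted WT livers it read 6.85, 6.93, 6.54, 5.60 and 7.02, against 5.84, 6.20, 6.18, 5.93 and 6.09 in fed WT livers. All fasted Mcl1(L-/-) livers lay above all fed ones, while fasted WT replicate 4, at 5.60, lay below every fed WT liver and the other 4 above them. The rise in Mcl1(L-/-) livers was 2.29-fold (log2 1.20, SE 0.22, limma adjusted p = 0.000492). In WT livers the difference was 0.54 (SE 0.22, limma adjusted p = 0.190), and without fasted WT replicate 4 it was 0.79 (adjusted p = 0.0101). The interaction, the fasting difference in Mcl1(L-/-) minus that in WT livers, was not called (0.66, 95% confidence interval -0.0013 to 1.31, limma adjusted p = 0.450). Fasted Mcl1(L-/-) and fasted WT livers differed by 0.57 and fed Mcl1(L-/-) and fed WT livers by -0.08 (SE 0.22 for both, limma adjusted p = 0.155 and 0.986).

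The start-site window of Slc22a5 at chr11:53891654-53891953 on the minus strand is of another kind than those of the chromosome 19 genes, with 72.7% G and C. It is shown to set the gene that was raised beside Slc22a28 and Slc22a30, which were lowered. Capitals mark the 5 matches to the GC box letters GGGCGG on either strand.
Slc22a5: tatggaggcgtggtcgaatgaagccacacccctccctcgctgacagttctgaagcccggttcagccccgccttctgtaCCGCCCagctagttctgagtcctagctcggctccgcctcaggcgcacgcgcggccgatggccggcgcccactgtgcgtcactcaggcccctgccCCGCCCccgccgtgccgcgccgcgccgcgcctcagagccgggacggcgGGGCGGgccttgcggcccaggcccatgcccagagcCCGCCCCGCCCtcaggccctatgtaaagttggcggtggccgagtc
Of all windows 35.7% hold at least 1 GC box, and those of Slc22a28 and Slc22a30 hold none. The window of Slc22a5 holds 34 CG pairs, against a median of 7 over all windows. The window of Slc22a23, a gene that fasting lowered, is of the same kind as that of Slc22a5. It has 77.3% G and C, 38 CG pairs and 4 GC boxes.

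Genes that make, shuttle and use carnitine were followed beside Slc22a5. Over all probe sets fasting was called higher for 8.2% and lower for 6.25% in Mcl1(L-/-) livers, and higher for 3.1% and lower for 3.68% in WT livers. Of 10 such genes fasting raised 4 and lowered 0 in Mcl1(L-/-) livers (median 0.14, against -0.0015 for all probe sets), and raised 4 and lowered 1 in WT livers (median 0.29, against 0.0149). Crat, the carnitine acetyltransferase gene, rose by 4.88-fold in Mcl1(L-/-) and 3.403-fold in WT livers. Slc25a20, which carries acylcarnitines into mitochondria, rose by 2.03-fold and 1.71-fold, and Cpt1a, which forms them at the outer mitochondrial membrane, by 1.93-fold and 1.87-fold (limma adjusted p between 1.63e-09 and 0.00489 for these 6 differences). Tmlhe, whose enzyme starts carnitine synthesis, fell by 1.53-fold in WT livers (limma adjusted p = 0.0259) and differed by -0.40 in Mcl1(L-/-) livers (adjusted p = 0.134). Bbox1, whose enzyme makes carnitine in the last step, differed by 0.00 in Mcl1(L-/-) and by -0.10 in WT livers and was not called. None of the 10 genes was called between genotypes or in the interaction. Over the same comparisons 1 of the 10 had an unadjusted limma p under 0.05 among fasted livers, 0 among fed livers and 1 in the interaction. Of all 22206 probe sets 4065, 1429 and 2477 had one.

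Slc25a20 was also 1 of the 2 genes whose values over 20 arrays were most like those of Slc22a5 (r = 0.94, and r = 0.88 for deviations from the group means), the other being the proteasome subunit gene Psmd12 (r = 0.95 and 0.87). In fasted WT replicate 4 Slc25a20 read 7.76, and 8.68 to 8.82 in the remaining livers of its group, so this liver lay within or below the range of fed WT livers for both carnitine carriers. In fed Mcl1(L-/-) replicate 1 it read 7.33, against 7.84 to 8.11 in the other fed Mcl1(L-/-) livers, and this liver was also the lowest of all 20 for Slc22a5.

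**Figure D4:**
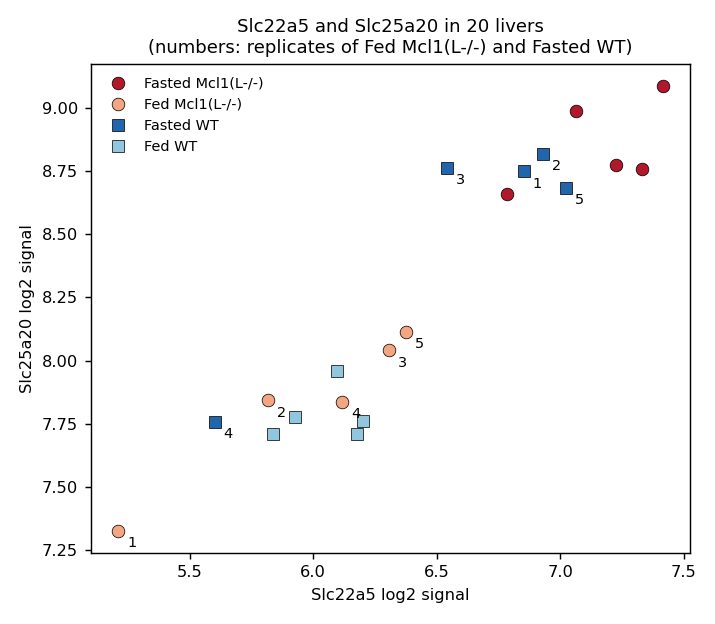
Slc22a5 (horizontal) against Slc25a20 (vertical), log2 signals of 20 livers, with replicate numbers beside fed Mcl1(L-/-) and fasted WT livers. Fasted WT replicate 4 lies among the fed livers, and fed Mcl1(L-/-) replicate 1 lies lowest for both genes.

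Slc22a7, the OAT2 gene, was lowered by fasting in both genotypes. It gave 3.05, 3.25, 3.36, 2.40 and 2.80 in fasted Mcl1(L-/-) livers, against 6.66, 4.53, 4.33, 5.43 and 4.49 in fed Mcl1(L-/-) livers. It gave 3.42, 2.95, 2.90, 2.29 and 2.89 in fasted WT livers, against 6.50, 5.15, 3.72, 4.27 and 4.83 in fed WT livers. No fasted liver reached the lowest fed liver of its genotype, and the fed livers varied most, replicate 1 being the highest in both fed groups. The fall was 4.33-fold in Mcl1(L-/-) livers (log2 -2.12, SE 0.41, limma adjusted p = 0.000726) and 4.004-fold in WT livers (log2 -2.0015, SE 0.41, limma adjusted p = 0.00280). The fasted means of 2.97 and 2.89 lie under the median probe set mean of 3.41, where signals are compressed, so these folds may understate the fall. They are also imprecise. The 95% confidence intervals were -2.97 to -1.26 in Mcl1(L-/-) and -2.85 to -1.15 in WT livers. With both fed arrays numbered 1 left out, a choice made after seeing the data, the falls were -1.72 and -1.60 (adjusted p = 0.000147 and 0.000680). The genotypes differed by 0.08 among fasted and by 0.20 among fed livers (SE 0.41, limma adjusted p = 0.950 and 0.985), and the interaction was -0.11 with a 95% confidence interval of -1.32 to 1.09, which leaves room for sizeable differences either way. The replicates numbered 1 are separate mice, and the labels do not say what the number stands for. Over all probe sets the deviations of the 2 fed arrays numbered 1 correlated at r = 0.17, the highest of the same-numbered pairs, and the part of this in their Slc22a7 signals was not tested.

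Slc22a23, the transporter gene without an established substrate, was lowered by a smaller amount. It read 7.05, 6.87, 7.27, 6.98 and 7.25 in fasted Mcl1(L-/-) livers, against 7.48, 7.72, 7.73, 7.68 and 7.87 in fed Mcl1(L-/-) livers. In fasted WT livers it read 7.29, 7.28, 7.04, 7.16 and 7.04, against 7.43, 7.60, 7.63, 7.41 and 7.59 in fed WT livers. The fasted and fed arrays did not overlap in either genotype. The fall was 1.53-fold in Mcl1(L-/-) livers (log2 -0.61, SE 0.10, limma adjusted p = 0.000141) and 1.30-fold in WT livers (log2 -0.37, SE 0.10, limma adjusted p = 0.0261). The call in WT was lost without replicate 3 or 5 of the fasted WT livers, and without replicate 2, 3 or 5 of the fed WT livers (adjusted p of 0.0620 to 0.0766). Among fasted livers the genotypes differed by -0.08 and among fed livers by 0.16 (SE 0.10 for both, limma adjusted p = 0.776 and 0.885), with an interaction of -0.24 (SE 0.145, adjusted p = 0.565).

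Slc22a18, the imprinted gene, was called by limma in none of the 5 comparisons as fitted to all arrays. It read 7.22, 6.14, 7.05, 7.32 and 7.24 in fasted Mcl1(L-/-) livers, against 7.19, 7.21, 7.43, 7.44 and 7.37 in fed Mcl1(L-/-) livers. In fasted WT livers it read 7.77, 7.73, 7.47, 7.32 and 7.25, against 7.28, 7.29, 7.16, 7.19 and 7.18 in fed WT livers. Replicate 2, which was also lowest for Slc22a28 and Slc22a30, stood alone at the bottom of the fasted Mcl1(L-/-) group. The difference between fasted Mcl1(L-/-) and fasted WT livers was -0.52 (SE 0.16, limma adjusted p = 0.0726), with an exact permutation p of 0.0159. It was -0.30 without fasted Mcl1(L-/-) replicate 2 (adjusted p = 0.170), and it was called under 4 other settings, with adjusted p of 0.0378 to 0.0482. Fasted and fed livers differed by -0.34 in Mcl1(L-/-) and by 0.29 in WT livers (SE 0.16 for both, limma adjusted p = 0.213 and 0.391), with an interaction of -0.62 (SE 0.23, adjusted p = 0.285). The exact permutation p of the fasting difference was 0.0873 in Mcl1(L-/-) and 0.0238 in WT livers. The SD was 0.49 in fasted Mcl1(L-/-) livers and 0.06 to 0.24 in the other groups, so the shared SE can be too large within WT livers. Of 12 genes listed as neighbours of Slc22a18, fasting raised Nap1l4, a histone chaperone gene, by 1.30-fold in Mcl1(L-/-) livers (limma adjusted p = 0.0265), and no other was called in any comparison. Of 6 measured neighbours of Slc22a3, Map3k4 fell by 0.59 on the log2 scale on fasting in Mcl1(L-/-) livers (limma adjusted p = 0.00249), and no other was called. Over all probe sets fasting in Mcl1(L-/-) livers was called higher for 8.2% and lower for 6.25%.

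Over the 7 genes, fasting in Mcl1(L-/-) livers was called higher for 1 (8.2% of all probe sets were called higher) and lower for 4 (6.25% were called lower), with 2 not called. Fasting in WT livers was called higher for 0 (3.1% of probe sets) and lower for 4 (3.68%), with 3 not called. The comparison of Mcl1(L-/-) with WT among fasted livers was called lower for 2 (1.67% of probe sets) and higher for 0 (3.32%). Among fed livers 0 of the 7 were called by limma, where 0.036% of probe sets were. Slc22a27 alone of the 7 passed limma's test there without adjustment for the number of probe sets. Of all 22206 probe sets 1429 did so. All fasted arrays lay above all fed ones for 1 gene (5.88% of probe sets) and below them for 4 (4.37%) in Mcl1(L-/-) livers, and below them for 4 (3.81%) in WT livers. All fasted Mcl1(L-/-) arrays lay below all fasted WT arrays for 1 gene (1.36%), Slc22a28. These genes were chosen with such results known, so nothing is read from their counts. The median difference over the 7 was -0.61 for fasting in Mcl1(L-/-), -0.37 for fasting in WT, -0.11 between fasted and -0.08 between fed genotypes, where the medians of all probe sets were -0.0015, 0.0149, -0.0171 and -0.0017. The 2 fasting comparisons share no arrays, while each comparison of genotypes shares arrays with both.

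The interaction, which is the fasting difference in Mcl1(L-/-) minus that in WT livers, was called for 0 of the 7, where limma called 0.135% of all probe sets. Slc22a28 had an interaction of -1.22 (95% confidence interval -2.08 to -0.35, limma adjusted p = 0.236, unadjusted p = 0.00785) and Slc22a30 one of -1.71 (-2.76 to -0.65, adjusted p = 0.166, unadjusted p = 0.00283). Slc22a18 also had an unadjusted p under 0.05 (0.0130). Of all 22206 probe sets 2477 had one. Without fasted Mcl1(L-/-) replicate 3 the interactions of Slc22a28 and Slc22a30 were -1.59 and -2.14 and both were called (adjusted p = 0.00840 and 0.00636), and 331 probe sets were then called in place of 30.

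**Figure D5:**
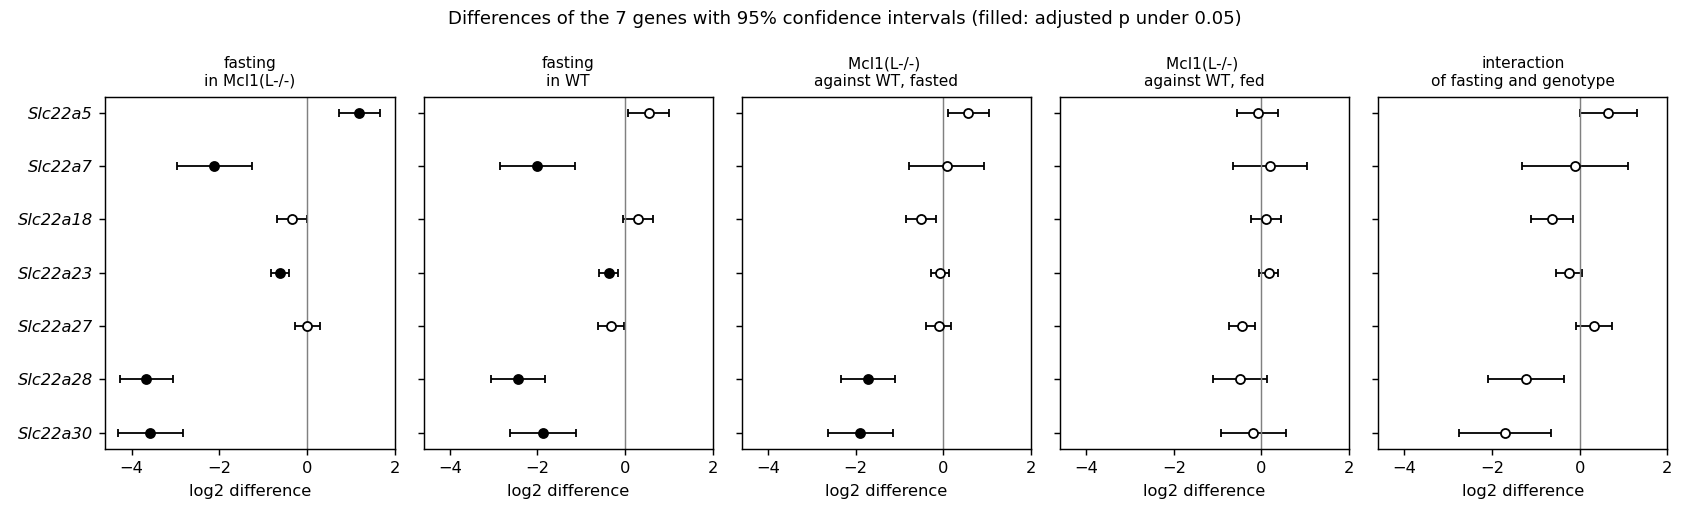
Log2 differences of the 7 Slc22 genes (horizontal) with 95% confidence intervals from limma in the 5 comparisons, filled where the adjusted p was under 0.05. The fasting panels hold the filled points of Slc22a7, Slc22a23, Slc22a28 and Slc22a30 below 0, the fasted genotype panel those of Slc22a28 and Slc22a30, and the fed genotype and interaction panels hold none.

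The group means were put in order gene by gene. For Slc22a28 the order, low to high, was fasted Mcl1(L-/-) at 4.21, fasted WT at 5.93, fed Mcl1(L-/-) at 7.88 and fed WT at 8.37. The last pair was not separated by limma, though its arrays did not overlap. For Slc22a30 the order was the same, at 5.99, 7.88, 9.56 and 9.75, and limma again did not separate the fed groups. For both genes limma's shared SE can be too large between fed livers, so the fed genotypes are not shown to be equal. For Slc22a7 the fasted means of 2.97 in Mcl1(L-/-) and 2.89 in WT livers and the fed means of 5.09 in Mcl1(L-/-) and 4.89 in WT livers formed 2 levels. For Slc22a5 fasted Mcl1(L-/-) livers were highest at 7.16, followed by fasted WT at 6.59, fed WT at 6.05 and fed Mcl1(L-/-) at 5.97, and no neighbours in that order differed by the test.

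The genes most like each transporter over the 20 arrays were sought among 18487 named genes, as a description without a test, since arrays of a group share their treatment. For Slc22a30 they were Ghr, the growth hormone receptor gene (r = 0.98, and 0.89 for deviations from group means), and Akr1c14, a hydroxysteroid dehydrogenase gene (0.98 and 0.85). For Slc22a28 they were Gamt, which makes creatine (0.98 and 0.84), and Nqo2, a quinone reductase gene (0.98 and 0.76). Ghr averaged 9.32 ± 0.36 in fasted and 10.66 ± 0.09 in fed Mcl1(L-/-) livers, and 10.09 ± 0.18 in fasted and 10.65 ± 0.05 in fed WT livers (SD, n = 5 each). Like Slc22a30 it was highest in replicate 3 and lowest in replicate 2 of the fasted Mcl1(L-/-) livers, at 9.80 and 8.87. For Slc22a7 the most alike were Hsd17b2 and Ces2b (r = 0.92 and 0.91, and 0.70 for the deviations of each), for Slc22a23 Pdxk and Iigp1 (0.92 and 0.91, deviations 0.63 and 0.57), for Slc22a18 Pigr and Ivd (0.84 each, deviations 0.82 and 0.76) and for Slc22a27 Pltp and Tspan17 (0.86 and 0.77, deviations 0.77 and 0.64).

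Because several liver transporters and steroid-metabolising enzymes differ between male and female mice, lists of such genes were read beside the Slc22 genes. Of 15 measured male-biased genes fasting lowered 9 and raised 0 in Mcl1(L-/-) livers (median -0.99), where 6.25% of all probe sets were called lower. It lowered 7 and raised 0 in WT livers (median -0.46), where 3.68% were called lower. The hydroxysteroid dehydrogenase gene Hsd3b5 fell by 49.8-fold in Mcl1(L-/-) and 47.2-fold in WT livers, and the organic anion transporter gene Slco1a1 by 14.1-fold and 12.3-fold (limma adjusted p between 4.86e-16 and 6.60e-06). Of 19 measured female-biased genes fasting raised 7 in Mcl1(L-/-) livers (median 0.12) and 5 in WT livers (median 0.06) and lowered 0, where 8.2% and 3.1% of all probe sets were called higher. The medians of all probe sets were -0.0015 and 0.0149. The steroid hydroxylase gene Cyp17a1 rose by 22.8-fold and 12.4-fold, and the oestrogen sulfotransferase gene Sult1e1 by 19.6-fold and 5.42-fold (limma adjusted p between 5.44e-07 and 0.00156). Among fasted livers Sult1e1 and Cyp2b10 were higher in Mcl1(L-/-) than in WT livers, by 4.84-fold and 5.22-fold (adjusted p = 0.00675 and 0.00384), and 0 of the male-biased genes were called. In that comparison 3.32% of all probe sets were called higher and 1.67% lower. Among fed livers Selenbp2 was lower in Mcl1(L-/-) than in WT livers by 3.71-fold (adjusted p = 0.0112). Between these fed groups 0.036% of all probe sets were called in either direction. No gene of either list was called in the interaction, where 2 male-biased and 3 female-biased genes had an unadjusted limma p under 0.05. Of all 22206 probe sets 2477 had one.

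Markers of other liver cells moved with the groups. Summed on the linear scale over 8 genes, Kupffer cell markers lay at 307 to 569 in fasted and 442 to 587 in fed Mcl1(L-/-) livers, and at 206 to 264 in fasted and 409 to 544 in fed WT livers. Of these 8 genes, fasting lowered 2 in Mcl1(L-/-) and 4 in WT livers, 3 were higher in fasted Mcl1(L-/-) than in fasted WT livers, and 1 had a higher interaction. Over all probe sets 6.25%, 3.68% and 3.32% were called in these directions in the first 3 of these comparisons, and 0.135% in either direction in the interaction. Sums over 7 stellate cell markers lay at 1381 to 1865 in fasted and 947 to 1198 in fed Mcl1(L-/-) livers, and at 915 to 1194 in fasted and 780 to 1147 in fed WT livers, a sum that the brightest marker, Dcn, dominates. Fasting raised Dcn by 1.77-fold and lowered Reln by 1.48-fold in Mcl1(L-/-) livers, and the median difference over the 7 was -0.30. Dcn was also 1.69-fold higher in fasted Mcl1(L-/-) than in fasted WT livers (limma adjusted p = 0.00174), with a median of 0.13 over the 7. Of 8 sinusoidal endothelial markers fasting raised 2 in Mcl1(L-/-) livers, and raised 1 and lowered 2 in WT livers. Over all probe sets fasting was called higher for 8.2% in Mcl1(L-/-) and 3.1% in WT livers. The hepatocyte sum stayed between 28520 and 31268 in all livers, with 1 of 8 markers higher and 1 lower on fasting in Mcl1(L-/-) and 2 higher in WT livers. No marker of cholangiocytes (5 genes), lymphocytes (5), kidney tubule (6) or exocrine pancreas (5) was called in any comparison. The part of these shifts in the Slc22 differences was not tested.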

How the data were processed

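Liver RNA of 20 mice was hybridised to 1-colour arrays with 1 array per mouse, after Trizol extraction and labelling with the GeneChip WT PLUS kit, per the labels' protocols. The deposited values are log2 signals per probe set that the authors made by robust multi-array averaging (RMA) in Partek 7.0, per the submitters' processing notes. The log base is not stated, and values from 1.34 to 12.6 have the range of a log2 scale. RMA draws low signals together and understates changes of dim probe sets. Signals of different probe sets are not compared as levels. Precision is limited by the array number. Of 22206 probe sets 19572 carried 1 symbol and 2634 none in the platform annotation.

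One linear model with 4 group means was fitted to all probe sets of the 20 arrays with limma 3.58.1 in R 4.3.3, with moderated variances and Benjamini-Hochberg adjustment. The code was run on simulated data in which each probe set had the same spread in all groups. That run therefore does not cover genes whose spread differs between groups, such as Slc22a28 and Slc22a30. The labels call the mice biological replicates, so p-values measure the spread between mice. Exact two-sided permutation tests compared 5 against 5 arrays. Named genes were the 7 transporters, other Slc22 genes that were called, up to 3 called genes per direction of the carnitine and neighbour lists, up to 2 of the male-biased and female-biased lists, Mcl1, and the 2 genes most like each transporter. Bbox1 was added after its values were seen. The transporters and all lists were chosen with earlier results of these data known. Start-site sequences came from RefSeq, and 6 of the 7 genes had one.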

Additional observations from a re-analysis of the deposited data

Results flagged for a closer look

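A test for a single array far from the rest of its group (Dixon's test at its 95% critical value for 5 values) was made for the 7 transporters in 4 groups, 28 groups of values in all. It singled out 2, where chance gives about 1 in 20. Slc22a18 read 6.14 in fasted Mcl1(L-/-) replicate 2, where the nearest other liver of the group read 7.05 and the farthest 7.32. Slc22a30 read 9.57 in fed WT replicate 4, where the nearest read 9.77 and the farthest 9.84.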

How the results depend on the processing

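The 35 differences of the 7 transporters were refitted under 758 combinations of difference and setting, and 730 kept their direction and side of the threshold, 5 lost a call, 7 gained one and 16 turned sign, none of which was called in either fit. Leaving out a replicate took the fed genotype difference of Slc22a5 between -0.18 and 0.11, that of Slc22a7 between -0.20 and 0.60, the fasted genotype difference of Slc22a7 between -0.0677 and 0.23, its interaction between -0.52 and 0.28 and the fasting difference of Slc22a27 in Mcl1(L-/-) between -0.0455 and 0.0794. Without both fed arrays numbered 1 the fed genotype difference of Slc22a5 was 0.0545. The 5 lost calls were those of Slc22a23 for fasting in WT. Slc22a18 between fasted genotypes was called under quantile normalisation (-0.57, adjusted p = 0.0378), trended and robust moderation (0.0447), without dim probe sets (0.0482) and without fasted Mcl1(L-/-) replicate 4 (-0.60, 0.0449). Leaving out each replicate gave 5 called transporters for fasting in Mcl1(L-/-), 3 to 5 for fasting in WT, 2 to 3 between fasted genotypes, 0 between fed genotypes and 0 to 2 for the interaction, the 2 without fasted Mcl1(L-/-) replicate 3. Over all probe sets the called numbers were 2689 to 3418, 1124 to 1467, 497 to 1707, 7 to 16 and 9 to 331 in the same order. Same-numbered arrays did not deviate together (r from -0.14 to 0.17, over 0.1 in 1 pair, the fed arrays numbered 1 that are both highest for Slc22a7, with 3 fed arrays most like the array of their own number), so the numbers were not taken to pair mice. With the replicate number as a block 5, 4, 2, 0 and 0 transporters were called. Each gene had 1 probe set, so choosing it by variance changed nothing. Group weights and leaving out both fed arrays numbered 1 were chosen after seeing the data.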
